A study of Mus musculus with 8 samples.

Results

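Enterochromaffin cells, the serotonin-producing endocrine cells of the gut epithelium, were picked out of a single-cell RNA-seq survey of mouse small intestinal crypts. A barcode counted as a member if it had at least 1500 UMIs (unique molecular identifiers, 1 per captured RNA molecule), at least 200 detected genes, at most 30% mitochondrial UMIs and under 20% of UMIs from the Defa (Paneth cell defensin) genes. In addition, at least 0.5% of its UMIs had to come from 11 hormone genes, and the 4 enterochromaffin genes among them (Chga, Chgb, Tac1 and Tph1) had to outnumber the 7 peptide hormone genes (Gip, Cck, Gcg, Nts, Pyy, Ghrl and Sst). This gave 142 members in the WT matrix and 49 in the KO matrix, 191 of 28750 deposited barcodes. Cells that met the same cell limits and the 0.5% share but had at least as many peptide hormone UMIs are called peptide hormone cells here, and there were 49 in WT and 50 in KO.

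The study asked what loss of ieCtnnb1, an enhancer upstream of Ctnnb1 (the β-catenin gene), does to the cells of the crypt. WT here stands for adult C57BL/6 females that carried the H11 i.enh reporter, in which a Shh promoter and the enhancer core drive LacZ-iCre from the H11 locus, so the controls were not plain wild type. KO stands for adult females of the same strain that were homozygous for a CRISPR deletion of ieCtnnb1 (Ctnnb1 Δi.enh), a deletion carried by every cell of the animal. Crypts were freed from the small intestine with 8 mM EDTA, and EpCAM+ DAPI- (live epithelial) cells were sorted and captured in droplets. The labels list 4 samples per group, but the cells of a group were pooled into 1 matrix in which no barcode can be assigned to an animal. Each group is therefore 1 sample, the difference between WT and KO animals has no replicate check, and no p-value is given. Intervals are exact 95% intervals that cover counting error only. Levels are CPM, the UMIs of a gene among 1000000 of the summed UMIs of a class of cells, and a gene is called higher or lower at 2-fold or more.

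Enterochromaffin cells make serotonin from tryptophan. Tph1 catalyses the rate-limiting hydroxylation, Ddc the decarboxylation, and vesicular monoamine transporters load the product into dense-core granules whose matrix is built from chromogranins. The cells taste the lumen through ion channels and receptors, and the serotonin they release acts on nerve endings, on muscle and on secretion. They arise from crypt progenitors that pass through a Neurog3-expressing stage, after which transcription factors such as Fev and Lmx1a mark the serotonin branch, and their peptide content differs with position along the crypt and villus.

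The promoters of the 4 genes that chose the cells are shown first, because every member was defined by transcripts that start there. Each line gives the 250 bases before the RefSeq start site on the GRCm38.p6 build, 5′ to 3′ on the gene's strand, and capitals mark the core of the cAMP response element, TGACG, or its reverse complement CGTCA. The windows were chr12:102554691-102554940 (plus strand) for Chga, chr2:132781392-132781641 (plus) for Chgb, chr6:7554811-7555060 (plus) for Tac1, and chr7:46672538-46672787 and chr7:46667378-46667627 (both minus) for the 2 start sites of Tph1.
Chga: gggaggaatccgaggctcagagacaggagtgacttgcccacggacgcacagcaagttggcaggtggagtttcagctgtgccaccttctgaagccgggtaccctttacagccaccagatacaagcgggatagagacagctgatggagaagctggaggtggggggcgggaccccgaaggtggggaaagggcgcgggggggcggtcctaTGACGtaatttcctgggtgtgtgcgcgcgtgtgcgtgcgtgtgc
Chgb: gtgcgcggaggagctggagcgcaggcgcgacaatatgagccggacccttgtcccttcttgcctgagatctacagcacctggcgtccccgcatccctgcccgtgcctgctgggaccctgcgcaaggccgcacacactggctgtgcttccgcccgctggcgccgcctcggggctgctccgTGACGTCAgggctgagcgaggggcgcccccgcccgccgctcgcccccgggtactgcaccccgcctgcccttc
Tac1: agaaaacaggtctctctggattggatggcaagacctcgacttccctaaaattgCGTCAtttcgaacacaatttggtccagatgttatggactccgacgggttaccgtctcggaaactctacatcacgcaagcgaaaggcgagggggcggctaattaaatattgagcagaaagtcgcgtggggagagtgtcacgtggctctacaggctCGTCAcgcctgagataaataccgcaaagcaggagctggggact
Tph1, start site 1: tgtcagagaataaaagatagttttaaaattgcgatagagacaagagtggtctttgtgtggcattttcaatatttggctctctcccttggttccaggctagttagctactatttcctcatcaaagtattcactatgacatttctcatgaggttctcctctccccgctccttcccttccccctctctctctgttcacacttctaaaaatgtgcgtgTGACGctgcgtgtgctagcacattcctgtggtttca
Tph1, start site 2: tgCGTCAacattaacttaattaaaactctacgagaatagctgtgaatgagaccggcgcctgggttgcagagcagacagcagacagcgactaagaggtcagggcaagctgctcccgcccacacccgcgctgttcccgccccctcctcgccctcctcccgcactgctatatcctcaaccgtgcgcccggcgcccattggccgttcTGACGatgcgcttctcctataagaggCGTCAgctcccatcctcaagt
Searched on both strands, the motif occurred 1 time for Chga (from base -44), 2 times in overlapping positions for Chgb (-72 and -69), 2 times for Tac1 (-197 and -43), 1 time at the first Tph1 start site (-36) and 3 times at the second (-248, -47 and -21). All 5 windows held it, against 5808 of 32536 distinct promoter windows of the same length (17.9%). A match is a description of the letters and not evidence of a bound factor.

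The matrices held 134876816 UMIs in WT and 123794575 in KO. After the limits on UMIs, genes and mitochondrial share, 10588 of 15987 WT barcodes (66.2%) and 5881 of 12763 KO barcodes (46.1%) were kept. The matrices differed throughout the epithelium: cells outside the endocrine class had a median of 8664 UMIs in WT and 14727 in KO. Barcodes present in both matrices numbered 57, and 0 of them were members. Scrublet, a doublet caller, marked 1216 of the 10588 WT cells (11.5%) and 585 of the 5881 KO cells (9.95%), among them 18 WT members and 0 KO members, which stayed in the values below.

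Enterochromaffin cells took up a smaller share of the KO matrix. They were 1.34% (1.13 to 1.58) of kept cells in WT and 0.833% (0.617 to 1.10) in KO, a log2 ratio of KO to WT of -0.69 (-1.19 to -0.21). Over the kept cells under the Defa limit, from which members could come, the shares were 2.07% of 6847 and 1.05% of 4678, a log2 ratio of -0.99. The direction turned when cells had to have at least 3000 UMIs (0.27) or under 5% Defa UMIs (0.81). The median Defa share of members was 6.21% in WT and 2.21% in KO. The peptide hormone cells went the other way, from 0.463% (0.343 to 0.611) in WT to 0.850% (0.632 to 1.12) in KO, a log2 ratio of 0.88 (0.28 to 1.48). Within the endocrine cells, enterochromaffin cells were 142 of 191 in WT (74.3%, 67.5 to 80.4) and 49 of 99 in KO (49.5%, 39.3 to 59.7).

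The members of the matrices differed in marker share, the percent of a cell's UMIs from the 11 genes of the rule. It is a value the rule used and is given as a description. The median share was 5.34% (0.540 to 14.6) in WT and 1.49% (0.524 to 9.65) in KO. Split at 4% and 2%, limits set after the data had been seen, 85 WT members but 13 KO members were marker-rich (4% or more), 23 and 5 lay between, and 34 and 31 were marker-poor (under 2%). Marker-rich members were 0.803% of kept WT cells and 0.221% of kept KO cells, a log2 ratio of -1.86 (-2.83 to -1.01). Marker-poor members were 0.321% and 0.527%, a log2 ratio of 0.72 (-0.04 to 1.46). The group of members therefore held 59.9% (51.3 to 68.0) marker-rich cells in WT and 26.5% (14.9 to 41.1) in KO.

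Marker share moved with the depth of a cell. WT members had a median of 2885.5 UMIs (1511 to 16779) and 1323.5 genes, and KO members had 10109 UMIs (1758 to 32585) and 2808 genes. The number of UMIs from the 4 genes was close, at a median of 162 per cell (13 to 440) in WT and 174 (11 to 477) in KO. Marker-rich cells were shallow in both matrices, with medians of 2598 UMIs in WT and 3755 in KO, whereas marker-poor cells had 8279.5 and 14097. The same number of marker UMIs in a deeper barcode gives a lower share, so less enterochromaffin RNA and more of other RNA in a barcode cannot be told apart from these values. Results are therefore given over all members and, for each list and for the named genes with at least 50 UMIs in a band, within the marker-rich and marker-poor members. The bands were cut on the rule's own genes and do not match the matrices in depth or share. Marker-rich members had a median share of 7.47% in WT and 5.94% in KO, and marker-poor members 1.08% and 1.03%.

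**Figure D1:**
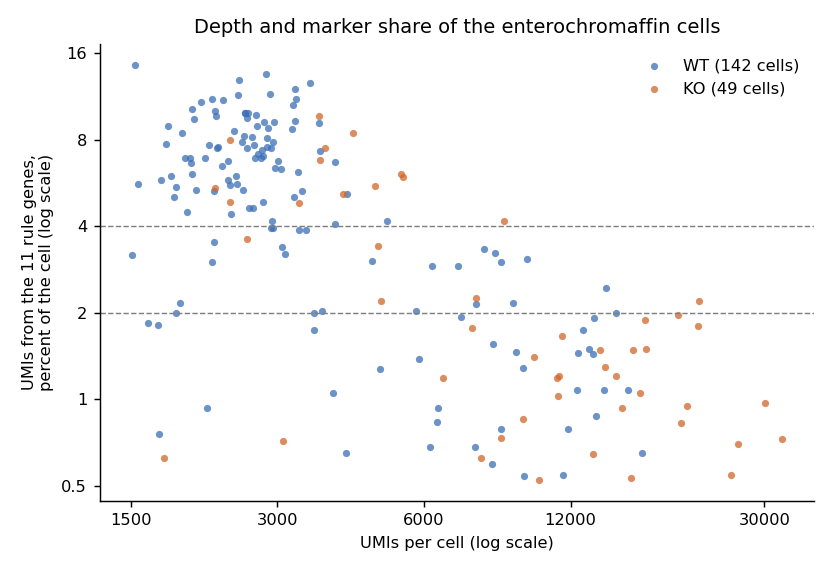
Each point is 1 enterochromaffin cell, with its UMIs (log axis) against the percent of them from the 11 genes of the rule (log axis), in WT (142 cells) and KO (49 cells), and dashed lines at 2% and 4%. The shallow, marker-rich corner holds 85 WT cells and 13 KO cells.

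Few cells lay directly at the 0.5% limit on marker share. The member nearest the 0.5% limit had 0.540% in WT (of 9627 UMIs) and 0.524% in KO (of 10314), and the nearest cells outside had 0.494% and 0.478%. Between 0.5% and 0.6% there were 3 members in each matrix. A limit of 0.25% gave 155 WT and 60 KO members, and a limit of 1% gave 128 and 34. In 2 WT members and 0 KO members the 4 genes made up between 50% and 75% of the 11 genes' UMIs. The rule required the 4 genes to outnumber the peptide hormone genes, so this is a description. No peptide hormone UMI was found in 84 WT and 19 KO members, and Cck had a UMI in 28.9% of WT and 59.2% of KO members.

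The 4 genes of the rule are given as a description. Chga and Chgb encode chromogranins A and B of the granule matrix. Chga was at 7891 CPM (7675 to 8111) in WT members and 2714 CPM (2580 to 2855) in KO members, with a median of 35 UMIs per cell (0 to 92) and 27 (2 to 97). Chgb was at 26858 and 11733 CPM, with medians of 114.5 UMIs (10 to 334) and 103 (8 to 339). Tac1, the precursor of substance P and neurokinin A, was at 1770 CPM in WT and 1775 CPM in KO, with medians of 5 UMIs (0 to 40) and 16 (0 to 82). Tph1 was at 915 CPM (843 to 993) in WT and 408 CPM (357 to 465) in KO, from 587 UMIs in 116 of 142 cells and 228 UMIs in 41 of 49 cells. Tph1 differed by a log2 of -1.17 (-1.39 to -0.94) over all members, by -0.40 (-0.78 to -0.04) between marker-rich members and by 0.18 (-0.26 to 0.63) between marker-poor members. Counted as UMIs per cell, which shifts the ratio of every gene by the same amount, Tph1 gave 0.17 and the median of all genes was 1.34. Tac1 alone of the 4 was not lower in KO in either band, with log2 ratios of 0.23 in marker-rich and 1.0002 in marker-poor members.

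Genes that had no part in the rule were read as a check of the label. Serotonin handling was present: 115 WT and 41 KO members had a UMI of Ddc, 88 and 27 of Slc18a1, 61 and 21 of Lmx1a. As a background, tuft cells, a chemosensory class chosen by its own genes (47 WT, 23 KO), had 0 Lmx1a, Fev and Slc18a2 UMIs in both matrices. At this depth, 0 of 47 allows up to 6.38% of cells with a UMI, and 0 of 23 up to 13.0%. Read at 1500 UMIs per cell, Ddc was seen in 56.3% of WT and 42.9% of KO members (81.0% and 83.7% at full depth). In tuft cells it was in 2.13% of WT and 0% of KO cells (6.38% and 21.7% at full depth). Non-endocrine cells had Ddc as well, in 2366 of 10397 WT and 2339 of 5782 KO cells at full depth. The median depth of tuft cells was 2441 UMIs in WT and 2868 in KO, below that of the members. Peptide hormone cells had Ddc too, in 59.2% (WT) and 82% (KO) at full depth and in 32.7% and 20% at 1500 UMIs. Marker-poor members were no higher at 1500 UMIs, with 23.5% and 19.4%, so Ddc did not set them apart. Slc18a1 was then in 8.82% and 9.68% of marker-poor members and in 8.16% and 0% of peptide hormone cells. Lmx1a was in 3 marker-poor members of each matrix and in 0 peptide hormone cells.

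Transcripts of Paneth cells were present in every class. The Paneth cell genes summed to 48607 CPM in WT members and 20737 CPM in KO members, compared with 55991 and 37212 CPM in tuft cells and 269146 and 173589 CPM in non-endocrine cells. Lyz1, a Paneth cell lysozyme, had a median of 24.5 UMIs per WT member and 27 per KO member, goblet cell mucin Muc2 had 2 and 1, and the enterocyte gene Fabp1 had 0 and 1. Immune markers summed to 3.12 CPM in WT and 0 in KO members, with 7 and 9 of 9 genes at 0 UMIs, and tuft markers summed to 20.3 and 10.7 CPM in members against 10931 and 10351 CPM in tuft cells. How much of the Paneth and goblet signal entered the droplets as free RNA was not tested.

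For the serotonin pathway, both vesicular transporters were lower in KO members, and no gene of synthesis outside the rule was called lower. Of 15 listed genes, 10 reached 50 UMIs over both matrices, among them Tph1, which the rule used. Of the other 9, Slc18a1 and Slc18a2 were called lower and 0 were called higher, with a median log2 ratio of 0.07. Over all 3361 genes that reached 50 UMIs, 7.47% were called higher and 15.4% lower, and the median was 0.01. Within marker-rich members, where 14.4% of genes were called higher and 15.7% lower, 5 of the genes outside the rule passed, the same 2 were lower and the median was -0.12. Within marker-poor members, where 4.48% and 6.29% were called, 6 passed, Qdpr was called higher and the median was 0.45.

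Ddc was at 510 CPM in WT members and 286 CPM in KO members, a log2 ratio of -0.83 (-1.11 to -0.56). Within bands the ratio was -0.10 in marker-rich and 0.45 in marker-poor members, and both intervals held 0 (-0.58 to 0.35 and -0.11 to 1.04). Ddc was also in peptide hormone cells, at 190 and 179 CPM. Gch1, which starts the synthesis of tetrahydrobiopterin, the cofactor of Tph1, was at 193 and 174 CPM (-0.16, -0.55 to 0.24), above the 71.7 and 83.1 CPM of peptide hormone cells. The following enzymes of that cofactor route were at 49.9 and 55.5 CPM for Pts and at 73.3 and 134 CPM for Spr. The recycling enzymes were at 96.7 and 157 CPM for Pcbd1 and at 251 and 290 CPM for Qdpr. None of these 5 cofactor genes was called over all members, and Qdpr was called higher in marker-poor members (106 and 240 CPM, log2 1.18, 0.59 to 1.81). Maoa, which degrades serotonin, was at 88.9 and 93.0 CPM, near the 96.0 and 100.1 CPM of non-endocrine cells.

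Slc18a2 (chr19:59260896-59296012, plus strand), the vesicular monoamine transporter VMAT2, had the larger difference of the transporters. It was at 150 CPM (121 to 183) in WT, from 46 cells, and at 26.8 CPM (15.02 to 44.3) in KO, from 11 cells, a log2 ratio of -2.48 (-3.37 to -1.69). The ratio was -1.28 (-2.54 to -0.23) in marker-rich members, and marker-poor members held 5 and 7 UMIs. No Slc18a2 UMI was found in peptide hormone cells or tuft cells of either matrix. Slc18a1 (VMAT1) was at 243 CPM (207 to 285) in WT and 80.5 CPM (58.7 to 108) in KO, a log2 ratio of -1.60 (-2.11 to -1.11), with -1.04 (-1.96 to -0.24) in marker-rich members. Unlike Slc18a2 it was also in peptide hormone cells, at 32.3 and 7.67 CPM. The brain isoform Tph2 and the melatonin enzyme Aanat had 0 UMIs in members of both matrices, and the uptake transporter Slc6a4 had 6 and 9 UMIs.

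**Figure D2:**
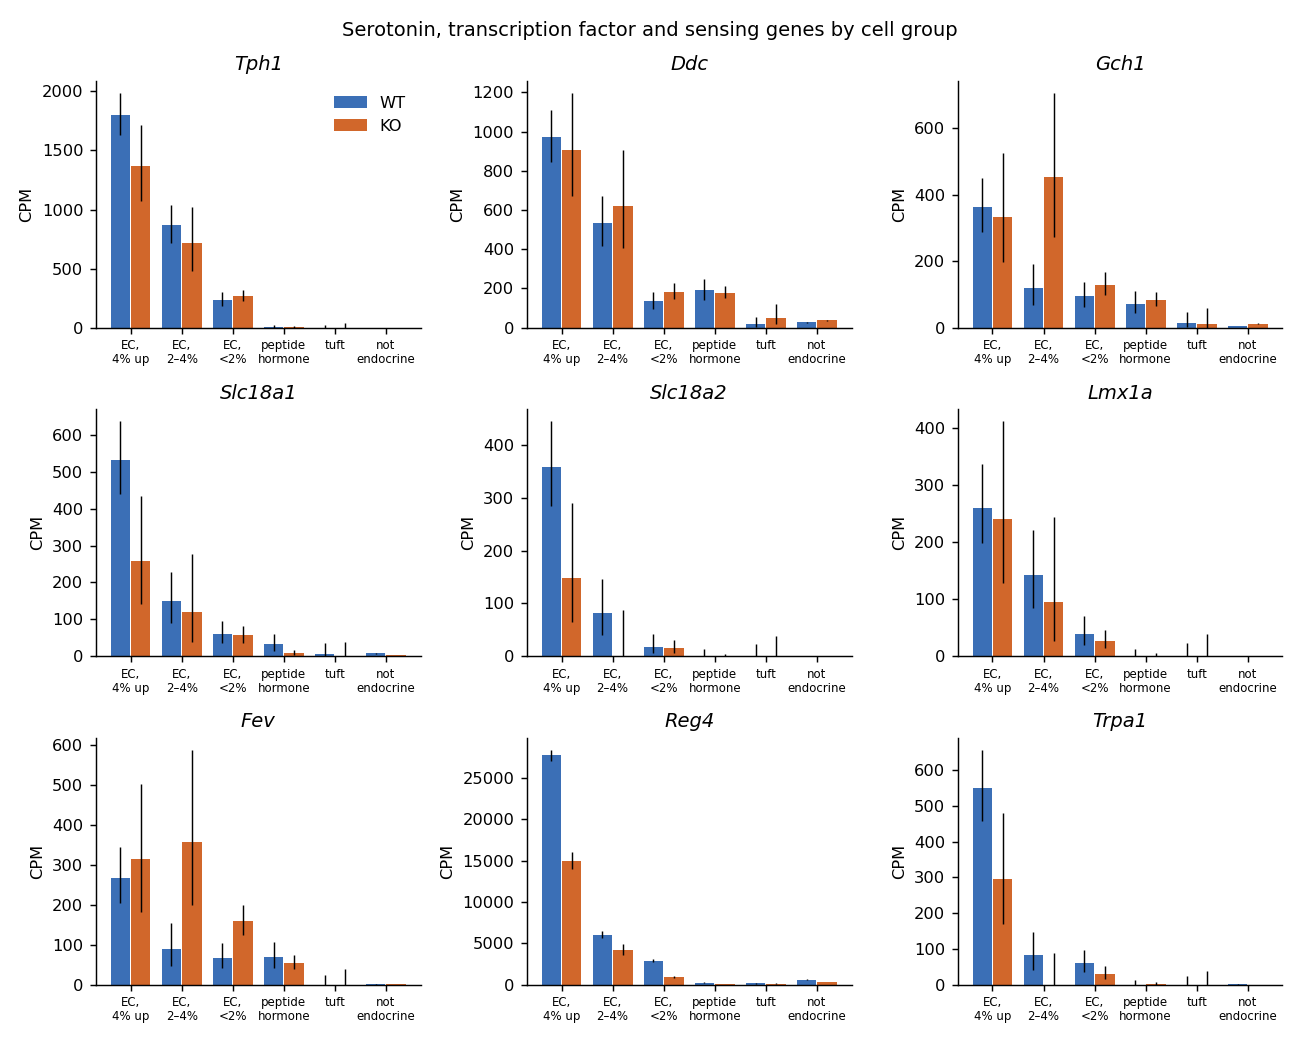
Bars give CPM in enterochromaffin (EC) cells split by marker share (4% and more, 2 to 4%, under 2%), in peptide hormone cells, tuft cells and non-endocrine cells, for WT (blue) and KO (orange), and error bars are exact 95% Poisson intervals. Slc18a2 is 358 CPM in marker-rich WT members and 148 CPM in marker-rich KO members, and 17.7 and 15.1 CPM in marker-poor members.

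Genes of luminal sensing and of electrical activity were lower in KO over all members. Of 26 listed genes 8 passed the count minimum and 7 of them were called lower, with a median log2 ratio of -1.97. Within marker-rich members 2 of 6 were called lower (median -0.89) and within marker-poor members 2 of 3 (median -1.11). In peptide hormone cells 3 of 3 were called lower (median -1.22), where 9.84% of all genes were. In non-endocrine cells 4 of 11 were called lower (median -0.75), where 6.69% of all genes were. Among all genes 15.4% were called lower over all members, 15.7% within marker-rich and 6.29% within marker-poor members. Trpa1, a cation channel opened by irritants and microbial metabolites, was at 235 CPM (199 to 276) in WT, from 51 cells, and at 53.7 CPM (36.2 to 76.6) in KO, from 15 cells. Its log2 ratio was -2.13 (-2.75 to -1.56) over all members and -0.90 (-1.75 to -0.14) in marker-rich members, and marker-poor members held 17 and 14 UMIs. In peptide hormone cells Trpa1 had 0 UMIs in WT and 1 in KO.

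Of the voltage-gated channels, 2 were also called lower within the marker-rich members. Scn3a, a sodium channel subunit, was at 324 and 94.8 CPM (log2 -1.77, marker-rich -1.51), and Cacna1a, a calcium channel subunit, was at 257 and 73.4 CPM (-1.81, marker-rich -1.54). The potassium channel Kcnb2 was at 85.8 and 8.95 CPM (-3.26) and Trpm2 at 81.1 and 10.7 CPM (-2.92). Kcnb2 and Trpm2 passed the count minimum through their WT UMIs. Ffar2, a receptor of short-chain fatty acids, showed a difference over all members, at 198 and 85.9 CPM (-1.21), and a ratio of -0.03 in marker-rich members. Amigo2, an adhesion protein gene placed in this list, was at 145 and 80.5 CPM (-0.85) and was the gene not called. The mechanosensitive channel Piezo2, the sodium channel Scn9a and the receptors Gpbar1, Ffar3 and Gpr119 had 0 UMIs in members of both matrices, and the isovalerate receptor Olfr558 had 13 and 9 UMIs.

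Reg4, a secreted lectin and the most abundant gene of this list, was at 12217 CPM in WT members and 2527 CPM in KO members, and its log2 ratio was -2.27 (-2.36 to -2.19). Its median was 20 UMIs per cell (0 to 282) in WT and 5 (0 to 228) in KO, so single cells of both matrices reached high counts. The ratio was -0.89 in marker-rich and -1.66 in marker-poor members. Reg4 is also a gene of other crypt cells, and it stood at 615 CPM in WT and 301 CPM in KO non-endocrine cells.

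Of the transcription factors of the serotonin branch, Lmx1a was called lower in KO over all members and not in marker-rich members, and Fev was called higher in marker-poor members and not over all members. Of 25 listed factors 9 passed the minimum, 4 were called lower and 0 higher, with a median log2 ratio of -0.80. Within marker-rich members 1 of 4 was lower, Sox4 (median -0.39), and within marker-poor members 1 of 3 was higher, Fev (median -0.17). In peptide hormone cells 4 of 7 were lower and 0 higher (median -1.05), where 9.84% of all genes were lower. In non-endocrine cells 1 of 17 was lower and 2 were higher (median 0.12), where 6.69% and 4.01% of all genes were. The shares of all genes were 15.4% lower over all members, 15.7% lower within marker-rich and 4.48% higher within marker-poor members. Lmx1a (chr1:167689237-167848741, plus strand), which acts in serotonin neurons and enterochromaffin cells, was at 137 CPM in WT and 51.9 CPM in KO (-1.40, -2.06 to -0.78), with a ratio of -0.11 (-1.10 to 0.77) in marker-rich members. It had 0 UMIs in peptide hormone cells and tuft cells of both matrices. Fev, the factor of the serotonin branch that also acts in serotonin neurons, was at 142 and 190 CPM (0.42, 0.00 to 0.84), with 0.23 (-0.64 to 1.02) in marker-rich and 1.25 (0.51 to 2.06) in marker-poor members. Fev was in peptide hormone cells as well, at 68.1 and 55.0 CPM.

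Of the factors common to endocrine cells, Neurod1 was at 360 and 172 CPM (-1.07, marker-rich -0.67, marker-poor -0.17) and Insm1 at 82.7 and 68.0 CPM (-0.28). Nkx2-2 was at 81.1 and 55.5 CPM (-0.55) and Sox4, a factor of endocrine progenitors, at 262 and 191 CPM (-0.45, marker-rich -1.11, -2.29 to -0.11). Myt1 was at 71.7 and 17.9 CPM (-2.003) and Foxa1 at 62.4 and 28.6 CPM (-1.12). Neurog3, the transient factor of endocrine progenitors, had 13 UMIs in WT members and 18 in KO members. Marker-rich members held 0 of these UMIs in WT and 3 in KO. Isl1, a factor of peptide hormone cells, was at 17.2 CPM in WT members and 0 CPM in KO members, and at 373 and 171 CPM in peptide hormone cells.

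Most of the genes of the secretory granule and its release that passed were called lower in KO members. Of 33 listed genes 19 passed, 14 were called lower and 0 higher in KO, the median log2 ratio was -1.54, and for 18 the counting interval lay below 0. The rule used Chga and Chgb, and without them 12 of 17 were called lower. Also without them, 6 of 14 were called lower within marker-rich members (median -0.75) and 0 of 4 within marker-poor members (median -0.24). The shares of all genes called lower were 15.4% over all members, 15.7% within marker-rich and 6.29% within marker-poor members. In peptide hormone cells 8 of 13 were called lower (median -1.35), where 9.84% of all genes were called lower and 7.77% higher. Over the whole list, the median was -0.38 among members with under 5% Defa UMIs. Counted as UMIs per cell the list median was -0.20, where the median of all genes was 1.34.

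The prohormone convertase Pcsk1 was at 384 CPM in WT and 62.6 CPM in KO (-2.61, -3.17 to -2.10), with -2.28 (-3.43 to -1.32) in marker-rich members. Pam, which amidates peptides, was at 175 and 32.2 CPM (-2.44, marker-rich -2.73, -5.03 to -1.13). Ptprn and Ptprn2, transmembrane proteins of the granule, were at 134 and 26.8 CPM and at 119 and 16.1 CPM. In marker-rich members Ptprn had 66 UMIs in WT and 1 in KO (-4.00, -9.32 to -1.47). It passed the minimum there through its WT UMIs, and marker-rich members held 223429 UMIs in WT and 54093 in KO. Syt7, a calcium sensor of release, was at 153 and 12.5 CPM (-3.61), and Snap25, a SNARE protein, at 131 and 28.6 CPM (-2.19). Rab3c, a small GTPase of secretory vesicles, was at 306 and 73.4 CPM (-2.06, marker-rich -0.86). Each of these genes passed the count minimum over all members through its WT UMIs.

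Other members of the granule list differed less or not in the marker-rich members. Pcsk1n, an inhibitor of Pcsk1, was at 187 and 113 CPM (-0.73, marker-rich 0.40), and Scg5, a chaperone of the convertase Pcsk2, at 109 and 37.6 CPM (-1.54, marker-rich -0.64). Cpe, the carboxypeptidase that trims peptide precursors, was at 346 and 174 CPM (-0.996) and was 1 of the genes that were lower in enterochromaffin cells than in peptide hormone cells (1026 and 382 CPM). Scg2 and Scgn also had their higher level there, at 757 and 297 CPM for Scg2 against 20.3 and 1.79 CPM in members, and at 258 and 143 CPM for Scgn against 24.95 and 0 CPM.

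Peptides other than Tac1 were unevenly spread over the members. Of 18 listed hormone and hormone receptor genes, 17 were in the files and 4 passed, Sct, Ucn3, Cartpt and Pyy (which the rule also holds), and these 4 were called lower. Within marker-rich members 3 of the 4 were lower. Among all genes 15.4% were called lower over all members and 15.7% within marker-rich members. Of the rule's 7 peptide hormones, Pyy and Cck passed, and Cck was at 190 CPM in WT and 218 CPM in KO members. Sct, the precursor of secretin, was at 2626 CPM (2502 to 2755) in WT, from 92 cells, and at 854 CPM (779 to 934) in KO, from 41 cells. The log2 ratio was -1.62 over all members, -2.88 in marker-rich and 0.65 in marker-poor members, so the direction differed between the bands. The top WT cell held 411 of the 1684 Sct UMIs. Cartpt (chr13:99898489-99901091, minus strand), the precursor of the CART peptide, gave 78 UMIs in 28 WT cells and 1 UMI in KO, at 122 and 1.79 CPM (-6.09, -11.41 to -3.57). Ucn3, urocortin 3, was at 106 CPM in 29 WT cells and 21.5 CPM in 7 KO cells (-2.30, -3.33 to -1.41), with -0.59 (-1.72 to 0.39) in marker-rich members. Pyy in members was 91 WT UMIs from 6 cells, of which 1 cell gave 69, and 0 KO UMIs, at least 26.4-fold higher in WT. Cartpt, Ucn3 and Pyy passed the count minimum through their WT UMIs.

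The 85 marker-rich WT members were read cell by cell for which peptides went together, using Cartpt and Ucn3, genes picked for this after the data had been seen. The 19 cells with Cartpt all had Sct, with a median of 29 Sct UMIs (2 to 131), compared with 1 (0 to 411) in the 66 others. They had little Tac1, at 759 CPM against 4095 CPM, and more Tph1, at 3377 CPM against 1318 CPM. Chga was close, at 17340 and 17831 CPM, and median depth was 2696 and 2577.5 UMIs. Vim, an intermediate filament gene, was seen in 1 of the 19 and in 50 of the 66. Among the 31 cells without Sct there were 0 with Cartpt. In KO, 0 of 13 marker-rich members had Cartpt, which allows up to 23.1% of cells with a UMI at this depth. Their median Sct was 1 UMI (0 to 17), and all 13 had Tac1 and Tph1.

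Ucn3 gave another split of the marker-rich WT members, which crossed the first: 4 of the 19 cells with Cartpt and 20 of the 66 without had Ucn3. The 24 cells with Ucn3 had a median of 125.5 Reg4 UMIs (60 to 282), compared with 15 (0 to 202) in the 61 without, at depths of 2702.5 and 2543 UMIs. Of the 24 cells, 20 also had Trpa1. Read from the other side, Ucn3 was in 20 of the 40 cells with Trpa1 and in 4 of the 45 without, Afp in 33 of 40 and 14 of 45, and Vim in 31 of 40 and 20 of 45. The 13 marker-rich KO members held the Ucn3 part of this pattern. The 5 with Ucn3 were all among the 6 with Trpa1, and their median Reg4 was 74 UMIs (21 to 228) against 28.5 (0 to 77). Afp was in 4 of the 6 with Trpa1 and 3 of the 7 without, and Vim in 5 of 6 and 5 of 7.

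**Figure D3:**
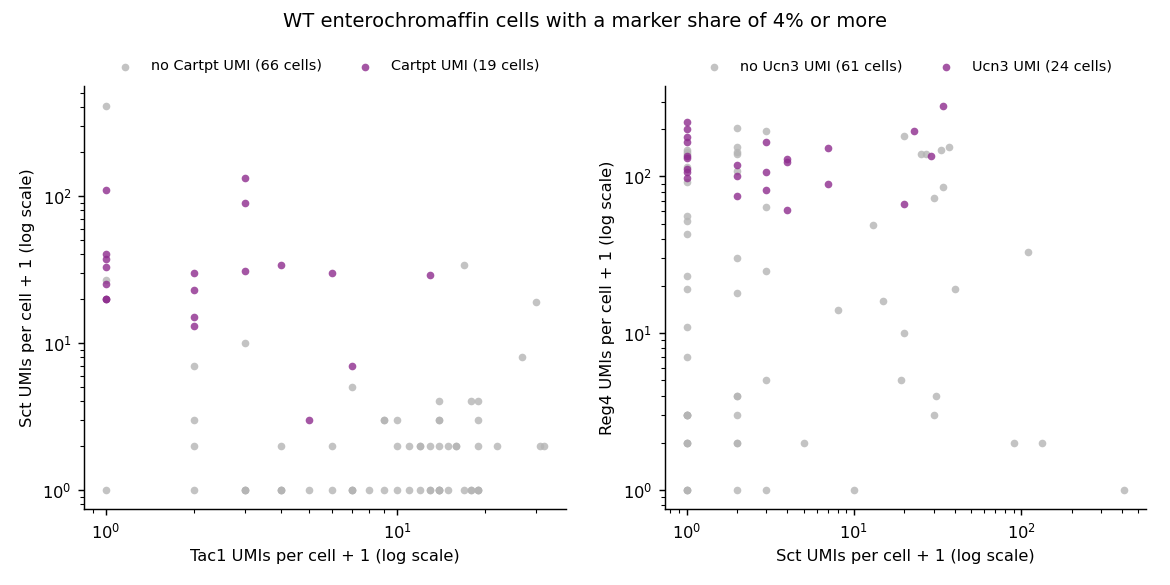
Each point is 1 marker-rich WT enterochromaffin cell (85 cells), on log axes of UMIs plus 1, with Tac1 against Sct coloured by Cartpt (left) and Sct against Reg4 coloured by Ucn3 (right). The 19 Cartpt cells lie at high Sct and low Tac1, and the 24 Ucn3 cells lie at high Reg4.

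Compared with all other kept cells, the members shared a set of genes that the rule did not use. The 15 genes with the highest ratio included the serotonin and sensing genes Slc18a2, Trpa1, Lmx1a, Scn3a and Trpm2 already described. Afp, α-fetoprotein, was at 1322 CPM in WT members (66 cells) and 87.7 CPM in KO members (10 cells), 1367-fold and 717-fold over other cells, with 0 UMIs in peptide hormone and tuft cells. Slc38a11, an amino acid transporter of the SLC38 family, was at 106 and 25.1 CPM, 906-fold and 956-fold. Vim was at 349 and 404 CPM, 482-fold and 477-fold. Fxyd6, a regulator of the sodium pump, was at 139 and 118 CPM. Lower ones were Lhx1, a homeobox factor, at 165 and 28.6 CPM, the phosphatase Dusp2 at 70.2 and 10.7 CPM, and the adenylate cyclase Adcy1 at 71.7 and 21.5 CPM. These ratios describe the chosen cells and are no test of them.

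Against peptide hormone cells, their closest relatives, 71 of 3355 genes (2.12%) were 2-fold or more higher in members of both matrices and 6 (0.179%) were lower. The count of higher genes ran from 17 to 109 over the alternatives tried. Reg4 was 60.8-fold higher in WT and 65.9-fold in KO. Afp, with 0 UMIs in peptide hormone cells, was at least 123-fold and at least 22.9-fold higher, and Lmx1a at least 12.8-fold and at least 13.5-fold. Tpbg, a membrane glycoprotein gene, was at 204 and 100.2 CPM in members, 57.0-fold and 26.1-fold over peptide hormone cells that held 1 and 3 UMIs of it (log2 intervals 3.33 to 11.15 and 3.09 to 7.03). Gstt1, a glutathione transferase, was 28.7-fold and 8.90-fold higher, at 720 and 535 CPM. Fabp5, a fatty acid-binding protein, was the clearest gene of the other side, at 92.0 and 46.5 CPM in members and 2539 and 1685 CPM in peptide hormone cells. The other 5 lower genes were Cdkn1c, Myl7, Cpe, Fam46a and Higd1a.

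Genes enriched in enterochromaffin cells were mostly lower in KO members. Taking the 133 genes at 4-fold or more over non-endocrine cells in both matrices, 81 were called lower and 0 higher, with a median log2 ratio of -1.17, compared with 517 lower and 251 higher of 3361 genes. In peptide hormone cells 26 of 55 were lower and 1 higher (median -0.93), where 9.84% of all genes were lower and 7.77% higher. In non-endocrine cells 24 of 114 were lower and 7 higher (median -0.34), where 6.69% and 4.01% of all genes were. Within marker-rich members, where 15.7% of all genes were lower and 14.4% higher, 28 of 77 were lower and 2 higher (median -0.67, all genes 0.12). Within marker-poor members, where 6.29% and 4.48% were, 5 of 31 were lower and 1 higher (median -0.23, all genes 0.15). The lowest ratios among them were Cartpt, Serpina1c (88 and 2 UMIs, -5.26, -8.33 to -3.37), Ambp (331 and 8.95 CPM, -5.21), Adgrg4 (111 and 5.37 CPM, -4.37), Serpina1e (57 and 0 UMIs, at least 16.6-fold) and Afp (-3.91, -4.36 to -3.50). These genes, like the rest of the 10 lowest, passed the count minimum through their WT UMIs. Serpina1c and Serpina1e are members of the near-identical α1-antitrypsin family, and reads may be split between its copies. Ambp, Afp and the Serpina1 genes encode plasma proteins best known from liver. Afp differed within both bands, with a ratio of -1.81 in marker-rich members and -5.99 in marker-poor members, the latter from 78 WT and 2 KO UMIs. Kcnb2, Prnp (the prion protein gene, 164 and 21.5 CPM), Trpm2 and Ptprn2 completed the 10 lowest.

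The enriched genes with the highest ratio were not called over all members. After Fev came Vim (0.21, -0.06 to 0.48), Fam183b (153 and 170 CPM), Hmgn3 (137 and 152 CPM), Cryba2 (62.4 and 68.0 CPM), Ngfrap1 (348 and 372 CPM) and S100a13 (156 and 163 CPM), then Bok, Rogdi and C2cd4b with ratios between 0.00 and 0.04. Vim was higher inside both bands, with 0.84 in marker-rich and 0.93 in marker-poor members, and was in 80 WT and 36 KO members. At 1500 UMIs per cell Vim was seen in 33.1% of WT and 44.9% of KO members (56.3% and 73.5% at full depth) and in 0 of 47 WT tuft cells.

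Over all genes, the highest ratios were Rbp7 (21.8 and 113 CPM, 2.37), Mrps28 (26.5 and 98.4 CPM, 1.89), Psmg4 (24.95 and 87.7 CPM, 1.81), 2810417H13Rik (67.1 and 231 CPM, 1.78) and Kcne3 (60.8 and 197 CPM, 1.69). The non-endocrine cells had ratios of 1.35, 1.38, 0.60, 0.80 and 1.31 for the same 5 genes. The lowest was AY036118, a gene model over ribosomal RNA sequence, at 1330 and 14.3 CPM (-6.54), which was also lower in KO non-endocrine cells (-4.36). After it came Cartpt, Serpina1c, Ambp and Pyy, each with at most 5 KO UMIs.

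The Wnt list, which holds the gene next to the deleted enhancer, held 22 genes, of which 9 passed, with 2 called lower, 0 higher and a median log2 ratio of -0.39, a count near the 15.4% lower and 7.47% higher of all genes. In marker-poor members, where 6.29% of all genes were lower, 1 of 5 was lower (median -0.36), and in marker-rich members Mmp7 alone passed (-0.30). Ctnnb1 itself (GRCm38 chr9:120929216-120960507, plus strand) was at 181 CPM (149 to 217) in WT members, 116 UMIs in 63 cells, and at 150 CPM (120 to 186) in KO members, 84 UMIs in 36 cells. The log2 ratio was -0.27 (-0.69 to 0.15). It was 0.75 (-0.31 to 1.72) in marker-rich members, from 32 and 13 UMIs, and -0.59 (-1.12 to -0.06) in marker-poor members, so no single direction was seen at this depth. Counted as UMIs per cell the Ctnnb1 ratio was 1.07, but this count shifts every gene alike, and the median of all genes was 1.34. In the other classes Ctnnb1 was at 165 CPM in WT and 142 CPM in KO in peptide hormone cells, 192 and 145 CPM in tuft cells, and 118 and 91.1 CPM in non-endocrine cells. The Wnt targets Axin2 (45.2 and 41.2 CPM), Ccnd1 (103 and 147 CPM) and Sox9 (59.3 and 82.3 CPM) were not called, and the genes called were Apc (74.9 and 32.2 CPM), which takes part in β-catenin breakdown, and Mmp7 (507 and 229 CPM), a protease that Paneth cells also make.

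Genes of proliferation were called in both directions. Of 17 listed genes 12 passed, and 5 were called higher and 3 lower over all members, where 7.47% and 15.4% of all genes were. The median was 0.41. Within marker-poor members, where 4.48% and 6.29% of all genes were called, 9 passed. Among these Cdk1 was called higher (1.08) and Mki67 lower (-1.39), with a median of 0.45. Within marker-rich members Cdkn1a alone passed (0.47). The higher ones were Tyms (40.5 and 115 CPM), Cdk1 (32.7 and 87.7 CPM), Birc5 (84.2 and 191 CPM), Mcm6 (34.3 and 76.9 CPM) and Pcna (32.7 and 68.0 CPM), genes of DNA replication and mitosis. The lower ones were Cdkn1a, Cdkn1b and Cdkn1c, which encode inhibitors of the cell cycle. Mki67, a marker of cycling cells, was at 198 and 131 CPM over all members and was not called there. Its log2 ratio of marker-rich to marker-poor members was -4.32 (-6.22 to -2.92) in WT and -1.30 (-3.61 to 0.32) in KO. These intervals overlap, and the marker-rich levels rested on 4 UMIs in WT and 3 in KO. From the lowest share to the highest (0.5% to 1%, 1% to 2%, 2% to 4%, 4% or more) Mki67 was at 322, 380, 163 and 17.9 CPM in WT and at 174, 94.96, 167 and 55.5 CPM in KO. The whole list summed to 1079 CPM in marker-rich and 1755 CPM in marker-poor WT members, and to 1460 and 1504 CPM in KO members.

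**Figure D4:**
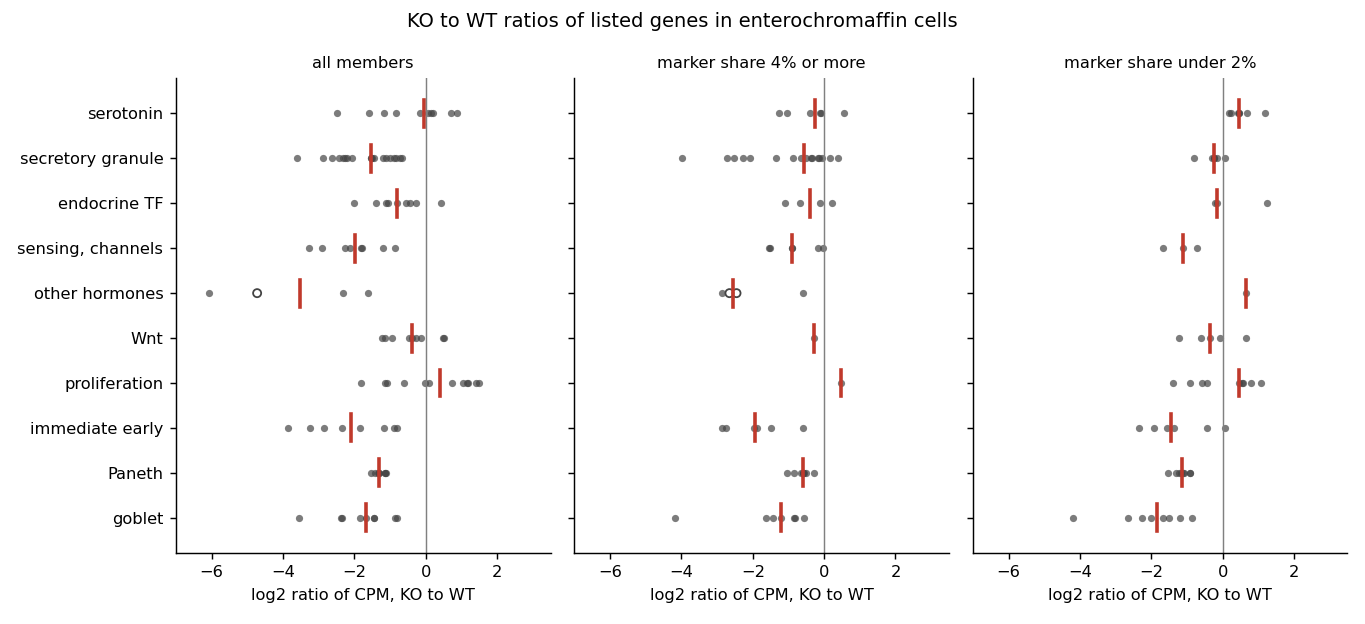
Points are genes with at least 50 UMIs, at their log2 ratio of KO to WT CPM in all members, in marker-rich members and in marker-poor members, by gene list, with medians as red bars and open circles for genes with 0 KO UMIs placed at their bound. The secretory granule list has medians of -1.54, -0.57 and -0.24 in the 3 panels, and the median of the immediate early list lies below 0 in each.

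Immediate early genes, which switch on within minutes of a stimulus or of tissue handling, had medians below 0 in members and in the other classes. Among members 6 of 8 were called lower and 0 higher (10 listed, median -2.10), with medians of -1.93 in marker-rich and -1.45 in marker-poor members. The shares of all genes called lower were 15.4% in members and 9.84% in peptide hormone cells. The median over the genes that passed in a class was -1.96 in peptide hormone cells (5 of 7 lower) and -0.82 in non-endocrine cells (5 of 10 lower, 2 higher, where 6.69% of all genes were called lower and 4.01% higher). Fos was at 725 CPM in marker-rich WT members and 185 CPM in marker-rich KO members, and Jun at 1446 and 518 CPM. Both matrices were handled as separate pools, so handling and genotype cannot be told apart.

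The lists of other cell types also differed between the matrices. In KO members 8 of 8 Paneth cell genes (median -1.31) and 7 of 9 goblet cell genes (median -1.68) were called lower, 1 of 11 enterocyte genes was called higher and 2 lower (median -0.20), and 1 of 4 stem cell genes was called lower (median -0.06). Among all genes 15.4% were called lower and 7.47% higher. The bands differed for the enterocyte genes: 2 of 7 were called higher and 3 lower within marker-rich members (median 0.46), and 4 of 9 higher and 0 lower within marker-poor members (median 0.80). The Paneth cell genes had 1 of 8 lower in marker-rich (median -0.59) and 6 of 8 in marker-poor members (-1.14), the goblet cell genes 4 of 7 (-1.22) and 7 of 8 (-1.85), and the stem cell genes 1 of 3 in marker-poor members (-0.69). Within marker-rich members 15.7% of all genes were called lower and 14.4% higher, and within marker-poor members 6.29% and 4.48%. Of the genes that differ between duodenum and ileum 2 passed and 1 was called lower (median -0.44), and of the stromal markers Vim alone passed. The goblet genes summed to 15844 CPM in WT and 6410 CPM in KO members, and the stem cell genes to 569 CPM in both. The part of these transcripts in the values of the enterochromaffin genes was not tested.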

How the data were processed

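Single-cell RNA-seq of sorted crypt cells was read from 2 deposited matrices, WT and KO. The authors loaded cells on Chromium chips with a 3′ kit and counted UMIs with Cell Ranger; the submitters' processing notes name version 2.1.1 and mm10, whereas the file headers name Cell Ranger 4.0.0. The values are raw UMI counts as deposited, for 27998 genes per barcode, with no normalization. The matrices hold more barcodes than the study clustered, and no barcode carries an animal. UMIs were summed per group and class and expressed as CPM. Intervals were exact Poisson (CPM), Clopper-Pearson (shares) and conditional binomial (ratios), at 95%. With 1 matrix per group no test was run. Ratios were read for genes with at least 50 UMIs over both matrices (in bands and other classes, 50 in that class; a Ctnnb1 ratio under this minimum is given with its UMIs). This minimum counts both matrices together, so a gene near 0 in 1 matrix passes only if it is high in the other. Against a count of 0 a floor of 3 UMIs per class was used. Detection was also read after thinning each cell to 1500 UMIs. Tuft cells were kept cells with at least 0.5% of UMIs from 9 tuft markers and none of the endocrine calls. Scrublet (scanpy 1.11.5) scored doublets, and no cell was removed for it. Scripts used Python 3.11.15, numpy 2.4.6, scipy 1.17.1, pandas 2.3.3 and matplotlib 3.10.9, and the ratio code was tested on simulated data.

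Genes were named by rule: the listed genes (18 lists), the 10 highest and 10 lowest KO to WT ratios among genes 4-fold or more over non-endocrine cells in both matrices, the 5 highest and 5 lowest over all genes without mitochondrial, ribosomal protein and Defa genes, the 15 highest ratios of members to all other cells, and the 10 highest and 10 lowest to peptide hormone cells, of which those called or with the most UMIs are given. Members and lists were chosen with earlier results of these data known, and the marker bands, Cartpt and Ucn3 after the data were seen. Promoter windows are RefSeq, GRCm38.p6, and gene positions GENCODE M21 (GRCm38). The alternatives were other limits on UMIs, mitochondrial, Defa and marker share, doublet removal, shared barcodes, the CPM denominator, the gene minimum, thinning, single-cell means, the marker bands and UMIs per cell.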

Additional observations from a re-analysis of the deposited data

Results flagged for a closer look

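Cells with enterochromaffin transcripts were also found among the barcodes that the limits left out. Of 2507 WT barcodes with at least 500 but under 1500 UMIs and at most 30% mitochondrial UMIs, 38 (1.52%, 1.07 to 2.07) met the rest of the rule, compared with 3 of 2777 in KO (0.108%). Of 1786 KO barcodes with at least 1500 UMIs and over 30% mitochondrial UMIs, 6 (0.336%) met the rest, compared with 2 of 672 in WT (0.298%). The shallow WT barcodes had a median marker share of 1.34%, from 15 marker UMIs. Neither set entered the values of the report.

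The shares of the 2 endocrine classes went in opposite directions, with log2 ratios of KO to WT of -0.687 for enterochromaffin cells and 0.877 for peptide hormone cells. With 1 matrix per group the difference between them was not tested. The direction of the first turned with the limits on UMIs and on Defa share.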

How the results depend on the processing

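With 1 matrix per group no replicate could be left out. No paired analysis was possible because the cells of each group were pooled and no barcode carries a replicate number. Over 11 results and 14 alternatives, 142 values were recomputed: 92 stayed within the main value's interval or 1.5 times the main count, 44 did not, and 6 called values turned. In all 15 values changed sign, 4 of them within the interval: Ctnnb1 at a marker share of 1% (0.065) and after thinning (0.016), and the serotonin median at 15% mitochondrial (0.0069) and at Defa under 5% (0.069). Without the 3 chosen after seeing the data, 85 of 111 stayed within them. A mitochondrial limit of 15% and a marker share of 0.25% moved none of the 11 results past those bounds. Neither did the removal of shared barcodes, which held 0 members, nor another CPM denominator, which shifts every ratio of KO to WT alike. The denominator was not applied to the shares. The main values were log2 ratios of -0.69 (share of kept cells), -0.59 (share of endocrine cells), -0.27 (Ctnnb1) and -1.17 (Tph1), counts of 251 genes higher and 517 lower, medians of -0.04 (serotonin), -1.54 (granule), -0.80 (transcription factors) and -0.39 (Wnt), and 71 genes above peptide hormone cells.

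With at least 3000 UMIs per cell, the share gave 0.27, Tph1 -0.67, the counts 109 and 279, the granule median -0.94 and the genes above peptide hormone cells 31. With Defa under 5%, these were 0.81, -0.48, 85 and 203, -0.38 and 24, and the transcription factor median was -0.11. A marker share of at least 1% gave Tph1 -0.87, and removal of the top 10% of Scrublet scores gave Tph1 -1.40 (-1.395). Means of single-cell CPM gave 484 genes higher and 109 above peptide hormone cells. Thinning to 1500 UMIs gave Tph1 -0.77, counts of 141 and 128, a serotonin median of -0.84 and 31 genes above peptide hormone cells. A minimum of 200 UMIs per gene, which tests fewer genes, gave 79 and 87, -0.83 and 17.

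3 alternatives were added after seeing the data. Marker-rich members gave shares of -1.86 and -1.19, Ctnnb1 0.75, Tph1 -0.40, counts of 100 and 109 and a granule median of -0.57. Marker-poor members gave shares of 0.72 (0.715) and -0.042, Tph1 0.18, counts of 92 and 129, medians of 0.45 (serotonin) and -0.24 (granule) and 22 genes above peptide hormone cells. UMIs per cell in place of CPM gave Ctnnb1 1.07, Tph1 0.17, counts of 2116 and 52, medians of 1.29 (serotonin), -0.20 (granule), 0.54 (0.535, transcription factors) and 0.95 (Wnt), and 47 genes. UMIs per cell shift the ratio of KO to WT of every gene by the same amount. The median log2 ratio of all genes was 1.34 per cell, 0.28 after thinning and 0.40 at 200 UMIs, against 0.01 in the main values. The causes of these differences were not tested. The 49 KO members and 558853 KO UMIs limit what can be seen for genes under about 50 UMIs.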

Other observations

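Genes with more exon sequence were lower in KO members than genes with less. Genes were split by quartile of their summed exon length, with overlapping exons merged. The median log2 ratio was 0.53 for genes of 204 to 2253 exon bases, 0.24 for 2255 to 3900, -0.14 for 3901 to 6755 and -0.68 for 6759 to 41155. Non-endocrine cells gave 0.69, 0.46, 0.05 and -0.41 for the same genes.

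Ribosomal protein genes took 67570 CPM of marker-rich WT members and 193048 CPM of WT members with 0.5% to 1% marker share, and 143549 and 235302 CPM in KO. Gm42418, a gene model over ribosomal RNA sequence, was at 18659 CPM in WT members and 1376 CPM in KO members, with log2 ratios of -3.76 in members, -3.63 in peptide hormone cells and -3.24 in non-endocrine cells.

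Some levels rested on 1 cell. Of the KO members' UMIs, 1 cell gave 741 of 910 for Fabp6, an ileal bile acid-binding protein, and 884 of 1090 for Zg16, a goblet cell lectin. Without the top cell of each matrix the log2 ratios were -1.62 and -2.64. Of the 33 Sst UMIs in WT members 30 came from 1 cell.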
